A study of Mus musculus with 217 samples.

Results

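The comparison was between single metaphase II oocytes of Tet2 knockout mice and of wild-type mice, both 2 months old, and asked how loss of Tet2 shows in the messenger RNA of the young egg. The oocytes were chosen by the group code that begins their library names, which gave 15 knockout and 18 wild-type oocytes, 33 of the 217 libraries of the series. The titles and the series design call the 18 libraries wild type, whereas their genotype tag reads Tet2 knockout. The titles were followed, and the level of Tet2 given below is the check of that choice.

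All 33 oocytes came from mice of the C57BL6/129 background that are labelled as controls, so none received resveratrol. Knockout and wild-type mice carry the same background label, and which part of Tet2 was deleted is not stated in the labels. Females were primed with pregnant mare serum gonadotropin and then given hCG, and the ovulated oocytes were freed of cumulus cells with hyaluronidase. Each library was 1 oocyte amplified by Smart-seq2, which copies full-length polyadenylated RNA. The study held 8 further groups of C57BL6/129 oocytes, taken as a background for the spread: knockout and wild type at 6 and at 10 months, each without and with resveratrol at 30 mg per L of drinking water. Those groups held 14 to 20 oocytes each.

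TET2 belongs to a family of enzymes, with TET1 and TET3, that oxidise 5-methylcytosine in DNA and so open a route to demethylation. A metaphase II oocyte has stopped transcription, its chromosomes are condensed on the second meiotic spindle, and its messenger RNA was stored during growth of the follicle. A difference in its RNA can therefore come from synthesis in the growing oocyte, from storage or from decay during maturation. With RNA measured alone, these cannot be told apart, nor can fewer molecules of 1 gene be told from more of the rest.

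No animal is named for any oocyte, so each group was summed to 1 value, and the ratio of the knockout to the wild-type sum is given with a 95% Poisson interval that covers counting error only. Levels are CPM, each count as a share of its sum times a fixed factor, corrected by TMM, the trimmed mean of M-values. A gene was called by size when the sums differed by at least 2-fold and the higher sum reached 10 CPM. Tests came from edgeR's quasi-likelihood fit with Benjamini-Hochberg adjustment at 0.05. In the first fit the 2 sums at 2 months borrowed their spread from the 8 sums at 6 and 10 months, which left 4 residual degrees of freedom and is called the pooled-spread fit. The second, chosen after the data were seen, used 26 sums of oocytes that share the first number in their library name, with 16 residual degrees of freedom, and is called the 26-sum fit. That number separates the knockout oocytes into set 1 (5 oocytes) and set 2 (10 oocytes), and the wild-type oocytes into sets of 12, 3, 2 and 1. The labels do not say what that number marks, and p-values speak of the spread between sums alone, which may be technical. "Rose" and "fell" are used below of genes that passed 1 of these fits, which is named.

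Depth was similar in both groups apart from knockout set 1. Raw counts were summed, so deeper oocytes weighed more in a sum. The 5 oocytes of knockout set 1 gave 32521146 counts, and the 10 oocytes of set 2 gave 43867540. The 15 knockout oocytes held 4331050 to 8775154 counts and 16637 to 18950 genes with a count, against 4376364 to 4617111 counts and 16477 to 18603 genes in the 18 wild-type oocytes, and the knockout oocytes above the others in depth were those of set 1, at 4903831 or more. Markers of the oocyte itself (Gdf9, the zona genes and others) were present in full, with 12 of 12 at 1 CPM or more in both groups, and made up 1.6% of knockout and 2.01% of wild-type counts. A single knockout oocyte, number 5 of set 1, stood apart with a marker share of 0.680%, against a median of 2.01% in its own set. Granulosa and cumulus markers took 0.117% of knockout and 0.158% of wild-type counts, nearly all from Serpine2, at 1125 CPM in the knockout and 1510 CPM in the wild type, while Foxl2, Fst, Areg and Ereg were at 0 in both. Leukocyte markers took 0.00188% of knockout and 0.00300% of wild-type counts, endothelial and stromal markers took 0.0101% of knockout and 0.0161% of wild-type counts, and the globins Hba-a1, Hba-a2, Hbb-bs and Hbb-bt were at 0 in both. A single wild-type oocyte of set 1 had 0.0223% leukocyte markers, against 0.00191% in the median wild-type oocyte. The lists therefore left 9 of 21 granulosa markers without a count in the knockout and 4 of 21 in the wild type, and their part in the differences below was not tested.

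Tet2 itself was a weakly expressed gene in these oocytes and was lower in the knockout. The gene lies at chr3:133463679-133545139 on the minus strand (GRCm38, the assembly that mm10 names). Knockout oocytes had 0 to 2.27 CPM with a median of 0.722, and wild-type oocytes had 0.982 to 5.2 CPM with a median of 3.05. Most wild-type oocytes were thus above most knockout oocytes, and the groups overlapped. The sums were 1.02 CPM in the knockout and 3.12 CPM in the wild type, a log2 ratio of −1.6 (95% interval −1.99 to −1.23). At 6 and 10 months the knockout sums were 0.955 to 1.39 CPM and the wild-type sums 2.4 to 3.22 CPM, so Tet2 separated the genotypes at all 3 ages, and at 2 months on the side that the titles give. Tet2 fell in the 26-sum fit (log2 −1.62, SE 0.34, adjusted p = 0.00412). It did not pass in the pooled-spread fit (log2 −1.61, SE 0.42, adjusted p = 0.203), and without knockout set 2 the 26-sum value was −1.34 with an adjusted p of 0.0987. A count over the whole gene includes exons outside any deletion, so a remaining level does not measure functional transcript.

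The other family members moved little. Tet3, the family member that acts on the paternal genome after fertilisation, was by far the most counted of the family. Tet3 ran from 399 to 857 CPM (median 657) in knockout oocytes and from 723 to 1236 CPM (median 806) in wild-type oocytes. Its sums of 657 CPM in the knockout and 834 CPM in the wild type gave a log2 ratio of −0.34, and it passed neither fit (adjusted p = 0.476 in the pooled-spread fit and 0.413 in the 26-sum fit). Tet1 had 2.44 CPM in the knockout and 3.05 CPM in the wild type (log2 −0.32) and passed neither fit (adjusted p = 0.843 and 0.313).

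Manba and Slc39a8, near Tet2 on chromosome 3, had the lowest ratios of the genes placed on that chromosome, and in both the wild-type sets differed. Manba, which encodes the lysosomal enzyme beta-mannosidase, lies at chr3:135485611-135571404, 2.02 Mb from Tet2. Manba was at 0 to 1.78 CPM (median 0.722) in knockout oocytes and at 0.732 to 160 CPM (median 133) in wild-type oocytes. Its sums of 0.713 CPM in the knockout and 113 CPM in the wild type gave a log2 ratio of −7.29 (−7.72 to −6.93). The wild-type oocytes were not uniform: sets 1 and 2 had 139 and 102 CPM, while sets 3 and 4 had 0.791 and 2.4 CPM. The 2 oocytes of set 3 lay within the knockout range and the single oocyte of set 4 (2.6 CPM) just above it. At the older ages Manba had 1.2 CPM in the knockout against 226 CPM in the wild type at 6 months, and 0.803 CPM in the knockout against 201 CPM in the wild type at 10 months. With resveratrol it had 55.7 CPM in the knockout and 181 CPM in the wild type at 6 months, and 1.29 CPM in the knockout and 192 CPM in the wild type at 10 months. Manba fell in the 26-sum fit (adjusted p = 0.00243, or 0.0503 without knockout set 2) and did not pass in the pooled-spread fit (adjusted p = 0.288). Slc39a8, a transporter of zinc and manganese 2.36 Mb from Tet2, had 0.0518 CPM in the knockout and 12.1 CPM in the wild type, a log2 ratio of −7.70 (−9.75 to −6.51). Its wild-type oocytes were uneven, with 86.0 and 47.6 CPM in 2 oocytes of set 1, 0 to 23.1 CPM in the other 16 and a median of 3.55 CPM. Without the highest of them the mean of wild-type oocytes was 7.67 CPM in place of 12.02 CPM. The wild-type sets had 15.2 CPM in set 1, 10.0 CPM in set 2, 0.113 CPM in set 3 and 0 in set 4, and Slc39a8 fell in the 26-sum fit (adjusted p = 0.00252). Slc9b1, a sodium and proton exchanger 1.88 Mb from Tet2, went the other way with 72.2 CPM in the knockout and 23.4 CPM in the wild type (log2 1.62), and rose in the 26-sum fit (adjusted p = 1.77e-05). These 3 were the genes called by size among 27 placed within 5 Mb of Tet2 at 10 CPM or more (11.1%), beside 7.10% of all placed genes and 5.40% of the 315 on chromosome 3.

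Across the transcriptome most genes differed little and under 1 in 10 passed 2-fold. Of 7382 genes at 10 CPM or more in the higher sum, 251 were called higher in the knockout (3.4%) and 323 lower (4.38%), together 574 (7.78%). The median log2 ratio was −0.09. Most calls were modest: 209 higher and 277 lower genes lay between 2-fold and 4-fold, and 18 higher and 19 lower genes reached 8-fold. Msi2 lay just inside the limit at a log2 ratio of −0.999987 and was not called, and Bsn lay just beyond it at −1.00087. Single oocytes of the groups did not overlap for 126 of the 574 called genes (22%), beside 2.25% of all 7382 genes. With plain CPM in place of TMM the split of higher to lower turned round, to 360 higher and 222 lower, because that scaling moved the median of all genes by 0.126 on the log2 scale. Without knockout set 2 the calls were 323 higher and 540 lower, and without knockout oocyte 5 of set 1 they were 263 and 325.

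**Figure D1:**
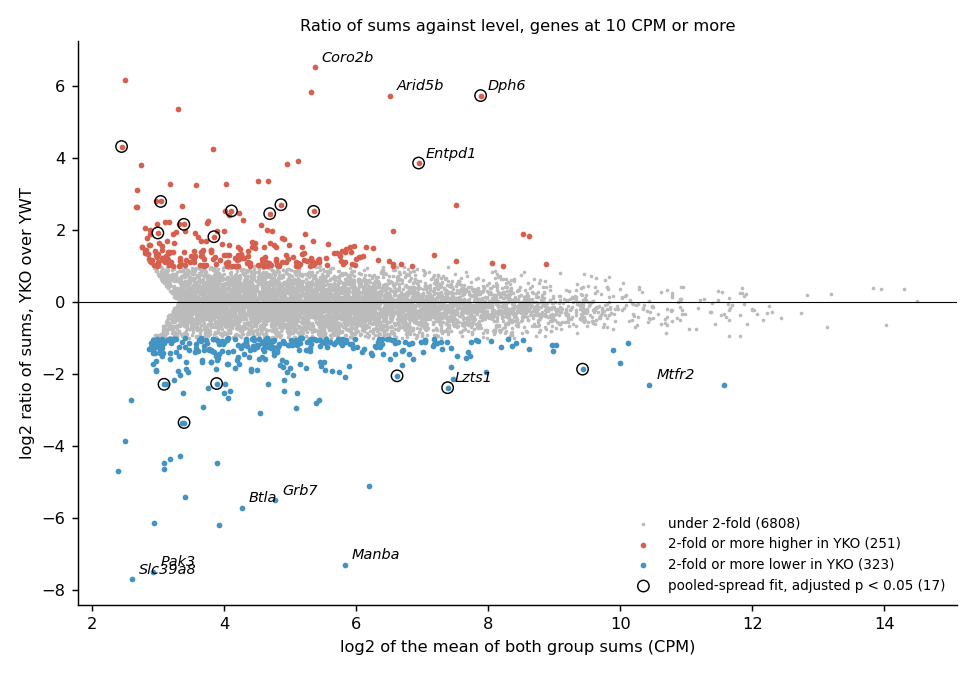
Each point is a gene at 10 CPM or more in the higher sum, with its mean level on the horizontal axis (log2 CPM) and the log2 ratio of the knockout to the wild-type sum on the vertical axis. Red marks the 251 genes called higher in the knockout, blue the 323 called lower, and circles the 17 genes among them that passed the pooled-spread fit.

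The pooled-spread fit tested 22239 genes and called 29 (0.13%), 21 higher in the knockout (0.0944%) and 8 lower (0.036%), with 2924 genes at an unadjusted p under 0.05. The 26-sum fit tested 19666 genes and called 1982 (10.1%), 1164 higher (5.92%) and 818 lower (4.16%). Without knockout set 1 it called 459 and 218, and without set 2 it called 393 and 320, fits in which the lone knockout sum is assumed to vary like the other groups. Without 1 wild-type set it called 840 to 871 higher and 632 to 920 lower. Of the genes called by size, 199 of 251 higher (79.3%) and 247 of 323 lower (76.5%) also passed the 26-sum fit, and 11 and 6 passed the pooled-spread fit. In data simulated on the same 10 sums, the pooled-spread fit found 10 of 81 genes changed by 2-fold, 54 of 58 changed by 4-fold and 61 of 61 changed by 8-fold, with 6 false calls among 21616 genes. The simulated counts took their spread from the fitted trend and held no genotype effect at 6 and 10 months. In the real data Coro2b, Arid5b and Grb7, all past 8-fold, did not pass this fit, so the simulated shares may not hold for real genes. Its call list changed with single sums: leaving out any 1 of the 8 sums at 6 and 10 months moved the counts by more than 1.5 times, to between 5 and 116 higher and 0 and 77 lower, with both highest counts reached without 6-month wild type with resveratrol.

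The highest ratios belonged to genes that were plainly on in knockout oocytes and near absent in wild-type oocytes. Coro2b, a coronin that binds actin filaments, lies at chr9:62419492-62537044. It ran from 26.2 to 131 CPM (median 82.7) in knockout oocytes and from 0 to 3.31 CPM (median 0.610) in wild-type oocytes, without overlap. Its sums of 81.9 CPM in the knockout and 0.874 CPM in the wild type gave a log2 ratio of 6.54 (6.2 to 6.93), the highest of the genes named by the rule. Set beside the other ages, it was the wild-type value that stood apart: 7 of the 8 other sums had 57.2 to 91.7 CPM, and 6-month wild type with resveratrol had 0.540 CPM. Coro2b rose in the 26-sum fit (log2 6.45, SE 0.43, adjusted p = 1.72e-09) and not in the pooled-spread fit (adjusted p = 0.267).

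Arid5b, a DNA-binding protein that works with a histone demethylase, gave the same picture at a higher level. It lies at chr10:68092520-68278740. Arid5b ran from 141 to 273 CPM (median 154) in knockout oocytes and from 0.971 to 9.29 CPM (median 2.68) in wild-type oocytes, without overlap, and the sums of 179 CPM in the knockout and 3.35 CPM in the wild type gave a log2 ratio of 5.74. The 6-month wild type with resveratrol had 3.75 CPM, and the other 7 sums had 157 to 286 CPM. Arid5b rose in the 26-sum fit (adjusted p = 2.25e-11) and did not pass in the pooled-spread fit (adjusted p = 0.299). Cdh20, a cadherin of cell adhesion, followed with 11.1 CPM in the knockout, 0.148 CPM in the wild type and 0.135 CPM in 6-month wild type with resveratrol. Alyref2, an mRNA export adaptor that resembles Alyref and whose reads could be split with it, had 58.1 CPM in the knockout and 4.05 CPM in the wild type, and 7.07 CPM in that same 6-month group. Arntl2, a partner of CLOCK in the circadian clock, had 41.8 CPM in the knockout and 4.01 CPM in the wild type, and 5.67 CPM there. All 3 rose in the 26-sum fit (adjusted p = 1.01e-08, 2.5e-07 and 1.6e-06) and none passed the pooled-spread fit (adjusted p = 0.278, 0.252 and 0.32).

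A few of the highest ratios rested on 1 knockout set. Galnt7, which starts mucin-type sugar chains on proteins, had 0.217 CPM in knockout set 1 and 33.3 CPM in set 2, against 0.457 CPM in the wild-type sum. Its log2 ratio of 5.37 turned to −1.03 without set 2. Mef2b, a MADS-box transcription factor whose reads overlap those of Borcs8 on the same strand, had 3.56 CPM in set 1 and 78.1 CPM in set 2, against 4.46 CPM in the wild type, and its log2 ratio of 3.37 turned to −0.36 without set 2. Ttbk1, a kinase of tau and tubulin, did not depend on 1 set: it had 12.5 CPM in the knockout and 0.874 CPM in the wild type (log2 3.82), and rose in the 26-sum fit (adjusted p = 0.00486).

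**Figure D2:**
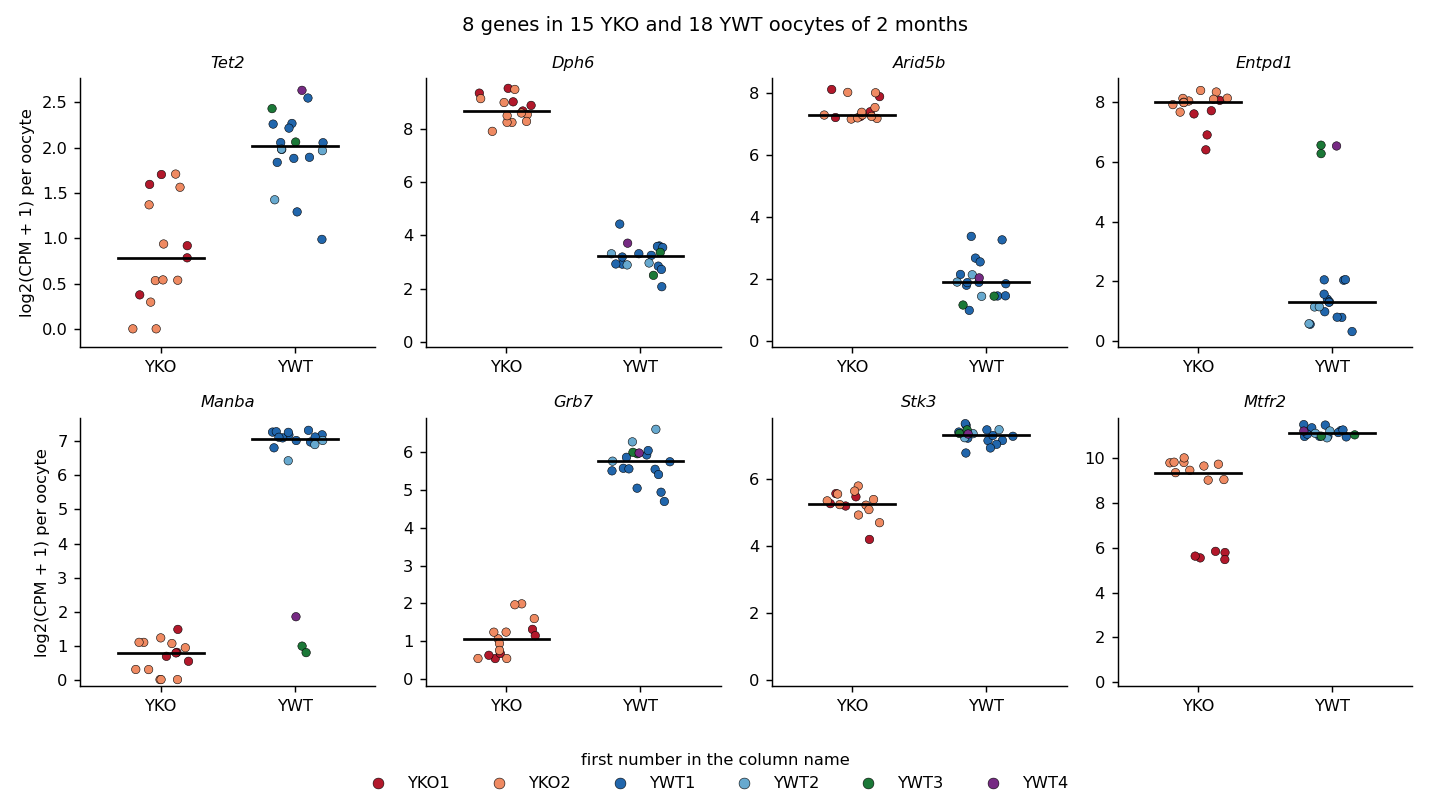
Every knockout oocyte (left of each panel) and wild-type oocyte (right) is a point at its log2(CPM + 1) for Tet2, Dph6, Arid5b, Entpd1, Manba, Grb7, Stk3 and Mtfr2, coloured by the first number of its library name, with a bar at the median. The 15 knockout and 18 wild-type oocytes do not overlap for Dph6 and Arid5b, overlap for Tet2 and Entpd1, and show for Manba a wild-type group that is split by set.

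The lowest ratios mirrored these, with genes present in wild-type oocytes and near absent in the knockout. Grb7, an adaptor that carries signals from receptor tyrosine kinases, lies at chr11:98446394-98455373. It ran from 0.451 to 2.97 CPM (median 1.09) in knockout oocytes and from 25.0 to 97.0 CPM (median 53.3) in wild-type oocytes, without overlap. Its sums of 1.17 CPM in the knockout and 53.4 CPM in the wild type gave a log2 ratio of −5.51 (−5.84 to −5.22). The 6-month wild type with resveratrol again stood with the 2-month wild type at 30.7 CPM, and the other 7 sums had 0.881 to 2.00 CPM. Grb7 fell in the 26-sum fit (log2 −5.65, SE 0.52, adjusted p = 2.48e-07) and did not pass in the pooled-spread fit (adjusted p = 0.259).

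Pak3, a kinase downstream of small GTPases, had 0.0777 CPM in the knockout and 15.1 CPM in the wild type (log2 −7.48). No knockout oocyte exceeded 0.450 CPM for Pak3, and no wild-type oocyte was under 4.33 CPM. Btla, an inhibitory receptor of lymphocytes, had 0.713 CPM in the knockout and 37.8 CPM in the wild type, where leukocyte markers took 0.00188% of knockout and 0.00300% of wild-type counts. Rrs1, a factor of ribosome assembly, had 0.479 CPM in the knockout and 20.7 CPM in the wild type, and Sec16b, which marks the exit sites of the endoplasmic reticulum, had 0.842 CPM in the knockout and 17.2 CPM in the wild type. The 6-month wild type with resveratrol had 11.3 CPM of Rrs1 and 20.5 CPM of Sec16b, beside 41.2 CPM of Btla, 8.69 CPM of Pak3, 4.37 CPM of Csmd1 and 0.0675 CPM of Mgl2. Mgl2, a lectin, had 0.389 CPM in the knockout and 10.2 CPM in the wild type, and Csmd1, a large membrane protein, had 0.648 CPM in the knockout and 16.4 CPM in the wild type. These 6 genes all fell in the 26-sum fit, with adjusted p-values of 0.000882 for Pak3, 0.0248 for Btla, 2.52e-05 for Rrs1, 2.5e-07 for Sec16b, 0.000496 for Mgl2 and 0.00192 for Csmd1. Btla did not pass without either knockout set (adjusted p up to 0.212), and none of the 6 passed the pooled-spread fit. At the older ages Pak3 was not lower in the knockout as a whole, with 3.74 to 8.09 CPM in the 4 knockout sums and 0.0307 to 8.69 CPM in the 4 wild-type sums, and Csmd1 had 2.51 to 3.93 CPM in the knockout and 0.675 to 4.37 CPM in the wild type. Their knockout effects at 2 months differed from those at the older ages in the 26-sum fit (adjusted p = 7.21e-05 for Pak3, 0.00113 for Csmd1 and 0.000194 for Mgl2), and not in the pooled-spread fit (adjusted p = 0.308, 0.186 and 0.165). Cdc5l, a core component of the spliceosome, had 1.28 CPM in the knockout and 28.5 CPM in the wild type (log2 −4.47) but passed neither fit (adjusted p = 0.421 and 0.0701). It was at 84.0 CPM in the 6-month knockout without resveratrol and at 42.1 CPM in the 10-month one.

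Among the called genes the 2-month wild-type sum often stood apart. These genes were chosen by a gap between the 2 sums at 2 months, which favours sums outside the range of the others. For 402 of the 574 (70.0%) the 2-month wild-type sum lay outside the range of the 8 sums at 6 and 10 months, beside 40.4% of all 7382 genes. The 2-month knockout sum lay outside that range for 269 (46.9%), beside 28.8% of all genes. For 271 (47.2%) the 2-month wild type and the 6-month wild type with resveratrol lay together on 1 side of the other 7 sums, beside 21.3% of all genes. A principal component analysis of all 171 oocytes over 5221 genes at 20 CPM or more placed them in the same way on its first component alone. On the first component (15.6% of the variance) the 2-month knockout oocytes ran from −14.2 to 14.9 and the 2-month wild-type oocytes from −33.4 to −14.0. The 6-month wild type with resveratrol ran from −29.9 to −17.9, and the other 7 groups had medians between −6.06 and 22.6. On the second component (11.5%) the 2-month wild type ran from 8.86 to 17.5 and the 6-month wild type with resveratrol from −0.984 to 8.76, without overlap. Whether mice of these groups were collected or processed together is not stated, so age, genotype and any shared handling of these oocytes cannot be told apart.

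**Figure D3:**
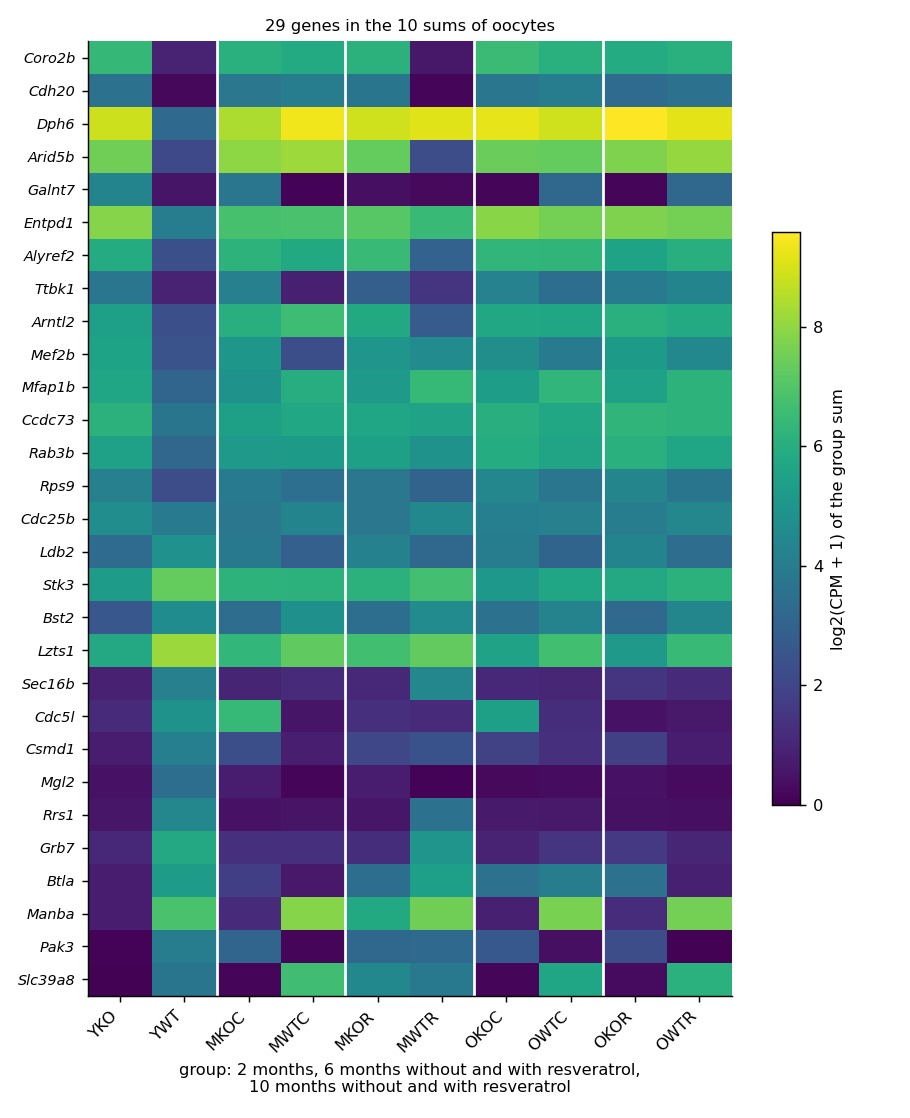
Rows are 29 of the genes named by rule and columns the 10 group sums, with the 2-month knockout first and the 2-month wild type beside it, coloured by log2(CPM + 1). For Coro2b, Arid5b and Grb7 the 2-month wild type resembles the 6-month wild type with resveratrol (0.540, 3.75 and 30.7 CPM there) and the 2-month knockout resembles the remaining sums.

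Of the named genes higher in the pooled-spread fit, Dph6 and Entpd1 kept their call without any 1 of the other sums, and Mfap1b, Rab3b and Ccdc73 lost it without some. Dph6, the enzyme that completes diphthamide, a modified histidine of translation elongation factor 2, lies at chr2:114516416-114654964 on the minus strand. Dph6 ran from 240 to 741 CPM (median 410) in knockout oocytes and from 3.19 to 20.5 CPM (median 8.30) in wild-type oocytes, without overlap. Its sums of 464 CPM in the knockout and 8.64 CPM in the wild type gave a log2 ratio of 5.74 (5.63 to 5.86). Dph6 rose in the pooled-spread fit (log2 5.75, SE 0.52, adjusted p = 0.0116) and kept its call without each of the 8 other sums (adjusted p 0.00400 to 0.0337). All 8 other sums had 337 to 764 CPM, so the 2-month wild type alone was low.

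Entpd1, the cell-surface enzyme CD39 that hydrolyses extracellular ATP, lies at chr19:40612366-40741602. It ran from 83.6 to 334 CPM (median 254) in knockout oocytes and from 0.244 to 93.2 CPM (median 1.47) in wild-type oocytes, with a small overlap. Its sums were 231 CPM in the knockout and 15.8 CPM in the wild type (log2 3.87). Entpd1 rose in the pooled-spread fit (SE 0.28, adjusted p = 0.00455) and kept its call without each of the 8 other sums (adjusted p 0.000972 to 0.0234). The wild-type sets did not share the low value, with 1.57 and 0.891 CPM in sets 1 and 2 but 78.5 and 84.3 CPM in sets 3 and 4, and Entpd1 did not pass in the 26-sum fit (adjusted p = 0.075).

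Mfap1b, a component of the spliceosome, lies at chr2:121460235-121474067. It ran from 22.6 to 81.0 CPM (median 48.4) in knockout oocytes and from 5.10 to 11.1 CPM (median 8.05) in wild-type oocytes, without overlap, and rose in the pooled-spread fit (50.4 CPM in the knockout sum and 7.69 CPM in the wild type, log2 2.71, adjusted p = 0.0242). Its near-identical neighbour Mfap1a had 33.6 CPM in the knockout and 32.6 CPM in the wild type, and how reads were shared between the copies is uncertain. Mfap1b lost the call without the 10-month knockout with resveratrol or the 10-month wild type without it (adjusted p up to 0.0714). Rab3b, a GTPase of vesicle release, ran from 25.9 to 63.6 CPM in knockout oocytes and from 1.87 to 22.7 CPM in wild-type oocytes, and rose to a sum of 43.7 CPM in the knockout against 7.92 CPM in the wild type (adjusted p = 0.0245). Ccdc73, a coiled-coil protein, ran from 48.0 to 104 CPM in knockout oocytes and from 7.76 to 21.0 CPM in wild-type oocytes, and rose to 69.8 CPM in the knockout against 12.1 CPM in the wild type (adjusted p = 0.0268). Rab3b lost the call without any 1 of the 4 sums at 10 months (adjusted p up to 0.0714). Ccdc73 lost it without either 10-month knockout sum, the 10-month wild type with resveratrol or the 6-month knockout without resveratrol (adjusted p up to 0.0746).

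The lower genes of the pooled-spread fit were less stable. Stk3, the Hippo pathway kinase MST2, lies at chr15:34875496-35178921. It ran from 17.4 to 54.6 CPM (median 37.6) in knockout oocytes and from 109 to 202 CPM (median 160) in wild-type oocytes, without overlap. Stk3 fell in both fits (log2 −2.05, adjusted p = 0.045 and 1.28e-07). Bst2, the antiviral protein tetherin, had 5.11 CPM in the knockout and 24.5 CPM in the wild type (log2 −2.26, adjusted p = 0.0417), with 10.1 CPM in knockout set 1 and 1.56 CPM in set 2. Lzts1, a leucine zipper protein, had 54.0 CPM in the knockout and 280 CPM in the wild type (log2 −2.38, adjusted p = 0.0425), with 117 CPM in knockout set 1 and 8.40 CPM in set 2. Neither passed the 26-sum fit (adjusted p = 0.113 for Bst2 and 0.145 for Lzts1), and with 1 set left out the ratio of Bst2 ran from −3.96 to −1.31 and that of Lzts1 from −5.05 to −1.29. Of the 8 sums at older ages, Bst2 lost the call without any but the 6-month wild type with resveratrol, and Stk3 and Lzts1 kept it without 2 (adjusted p up to 0.101 for Bst2, 0.116 for Stk3 and 0.0965 for Lzts1). Stk3 also lost it without knockout oocyte 5 of set 1. In an additive model over all ages, Bst2 still passed, and Dph6, Entpd1, Mfap1b, Rab3b, Ccdc73, Stk3 and Lzts1 did not.

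Several of these genes lie together on chromosome 2. Of the genes with a position, 452 of 6368 were called by size (7.10%), and on chromosome 2 the calls were 45 of 508 (8.86%). In the 10 Mb from 110 to 120 Mb they were 9 of 30 (30.0%), the highest share of 140 windows with at least 20 genes. From 100 to 130 Mb they were 22 of 109 (20.2%), 9 higher and 13 lower. This interval was chosen after the values were seen and has no test. In 21 of the 22 the 2-month wild-type sum lay outside the 8 sums of the older ages, beside 70.0% of all called genes. The 2-month knockout sum lay outside them in 3 of the 22, beside 46.9% of all called genes. In 18 of the 22 the wild-type sum lay outside and the knockout sum inside. Of the 22, 19 passed the 26-sum fit, beside 79.3% of all genes called higher and 76.5% of those called lower.

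The genes there have unrelated roles and moved both ways. Rmdn3, which tethers mitochondria to the endoplasmic reticulum, had 16.9 CPM in the knockout and 4.27 CPM in the wild type (log2 1.98). Ivd, an enzyme of leucine breakdown, had 20.4 CPM in the knockout and 8.52 CPM in the wild type (log2 1.26), and Nop10, a component of box H/ACA ribonucleoproteins, had 27.3 CPM in the knockout and 10.8 CPM in the wild type (log2 1.33). All 3 rose in the 26-sum fit (adjusted p = 0.00108, 0.000363 and 0.000846). On the lower side Capn3, a calpain protease, had 13.1 CPM in the knockout and 46.0 CPM in the wild type (log2 −1.81). Vps39, a tether of late endosomes and lysosomes, had 91.6 CPM in the knockout and 223 CPM in the wild type (log2 −1.29), and Zc3h6, a zinc finger protein, had 544 CPM in the knockout and 1357 CPM in the wild type (log2 −1.32). These fell in the 26-sum fit (adjusted p = 0.0143, 0.0115 and 0.00552), but not without knockout set 2 (adjusted p = 0.217, 0.244 and 0.126). The genotypes were on the opposite sides at the older ages for Capn3, with 13.5 to 23.2 CPM in the 4 knockout sums and 4.93 to 6.4 CPM in the 4 wild-type sums.

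**Figure D4:**
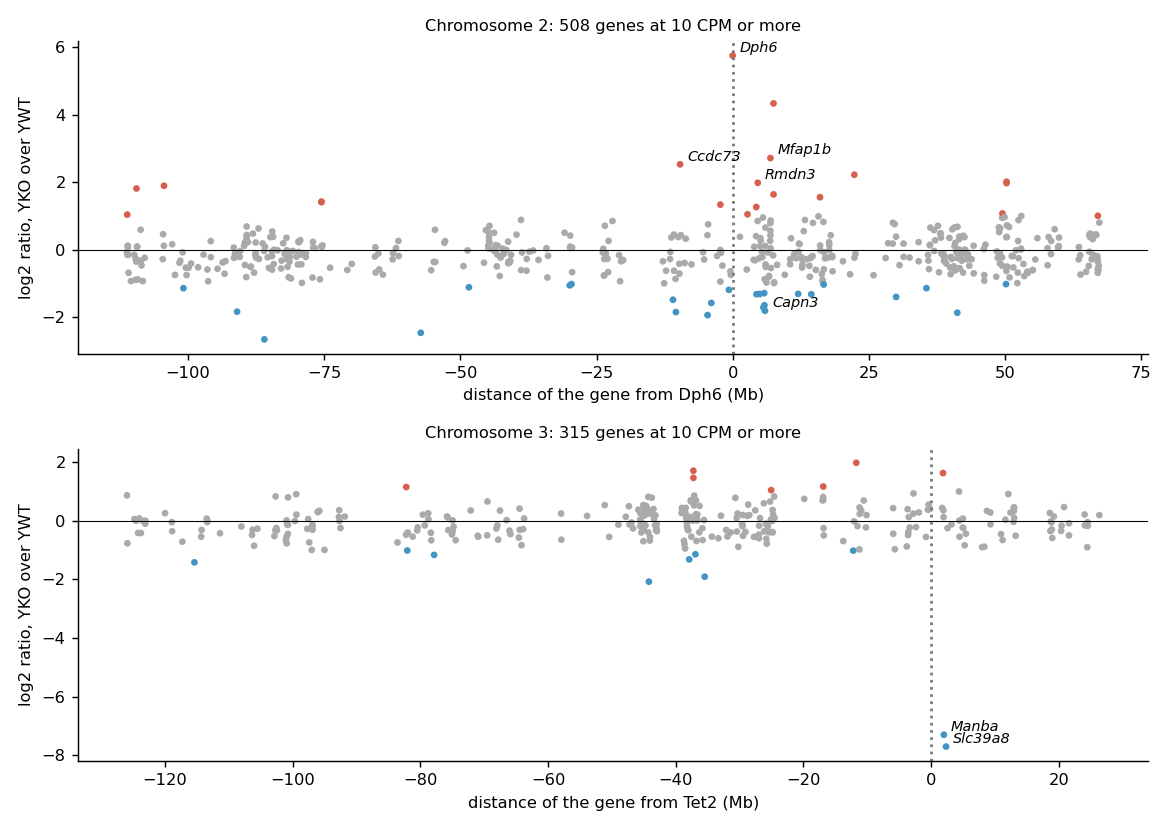
The log2 ratio of the knockout to the wild-type sum is plotted against the distance in Mb from Dph6 for 508 genes of chromosome 2 and from Tet2 for 315 genes of chromosome 3, with genes called by size in colour. Called genes gather within 10 Mb of Dph6, where 18 of 71 were called (25.4%), and the lowest points of chromosome 3 are Manba and Slc39a8, within 5 Mb of Tet2.

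Gene lists were compared by counts and medians, without a test of the list. Over 26 lists, 446 distinct genes reached 10 CPM, of which 21 were called higher and 9 lower. Of all 7382 genes, 3.4% were called higher and 4.38% lower, and these shares stand beside every count by size below. The cytosolic ribosomal protein genes stood highest. Of 31 at 10 CPM or more, 30 were above 0 with a median log2 ratio of 0.61, against −0.09 over all genes, and 7 were called higher (among them Rpl13, Rps9, Rps26, Rpl14, Rps29 and Rpl35) and 0 lower. In the 26-sum fit 31 of 75 tested members rose and 0 fell (41.3%, beside 5.92% of all genes higher). In the pooled-spread fit 1 member, Rps9, rose (17.1 CPM in the knockout and 3.82 CPM in the wild type, adjusted p = 0.041, lost without any 1 of the older sums but the 6-month wild type with resveratrol). Rpl13 had 80.6 CPM in the knockout and 29.9 CPM in the wild type (log2 1.43), and Rpl35 had 17.0 CPM in the knockout and 6.33 CPM in the wild type (log2 1.42). Reads of ribosomal protein genes can be shared with many processed pseudogenes, so single members are uncertain.

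Summed over the list, ribosomal protein transcripts made up 846 to 1785 CPM (median 1171) in knockout oocytes and 675 to 959 CPM (median 773) in wild-type oocytes, with a partial overlap. The sums were 1233 CPM in the knockout, 795 CPM in the wild type and 1035 to 1196 CPM in the 8 groups of older ages, so the knockout lay above and the wild type below all of them. Both knockout sets (1101 and 1345 CPM) exceeded all 4 wild-type sets (678 to 791 CPM). The count of members that rose depended on the sets: it was 16 without knockout set 1, 2 without set 2, and 18 to 25 without 1 wild-type set. Without knockout oocyte 5 of set 1, 8 members were called by size and the median was 0.70.

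Genes of oxidative phosphorylation encoded in the nucleus followed, with a median of 0.44 and 30 of 34 above 0. Ndufs5, a subunit of complex I, was called by size and rose in the pooled-spread fit (12.6 CPM in the knockout and 3.32 CPM in the wild type, log2 1.93, adjusted p = 0.0425, lost without any 1 of the older sums but the 6-month wild type with resveratrol). In the 26-sum fit 26 of 75 tested members rose and 0 fell (34.7%), and the counts were 7 higher without knockout set 1, and 9 higher with 2 lower without set 2. Proteasome subunits had a median of 0.43 with 23 of 27 above 0 and no member called by size. In the 26-sum fit 5 of 31 rose (16.1%), among them Psmc1, an ATPase of the regulatory particle, at 31.8 CPM in the knockout and 16.4 CPM in the wild type, and 1 rose without either knockout set.

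Heat shock and chaperone genes had a median of 0.34 over 20 members, with 4 called higher and Cct4 lower (25.0%, beside 7.78% of all genes). Hspb1, a small heat shock protein, had 38.6 CPM in the knockout and 8.64 CPM in the wild type (log2 2.16), with 10.7 CPM in knockout set 1 and 59.4 CPM in set 2. Dnaja1, a co-chaperone of HSP70, had 250.3 CPM in the knockout and 114 CPM in the wild type (log2 1.14), and Hspa8 and Hspa4, both HSP70 proteins, had 52.9 and 38 CPM in the knockout against 26.2 and 18.9 CPM in the wild type. Hspb1 and Dnaja1 rose in the 26-sum fit (adjusted p = 0.00919 and 0.00585), whereas Hspa8 and Hspa4 did not pass (adjusted p = 0.0643 and 0.139). Hspb1 did not pass without set 2 (adjusted p = 0.812).

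The ratio varied with transcript length. Among 6368 genes with a known exonic length, split into 4 equal groups by length, the median log2 ratio was 0.12 in the shortest group (54 to 3104 bases), −0.09 and −0.16 in the middle groups and −0.21 in the longest. In the shortest group 86 genes were called higher and 52 lower, and in the longest 27 higher and 65 lower. Of the ribosomal genes 29 of 31 were in the shortest group, of the oxidative phosphorylation genes 21 of 33 and of the proteasome genes 18 of 27, but of the heat shock and chaperone genes 7 of 20. Growth and zona genes, with 13 of 18 in the shortest group, had a median log2 ratio of −0.22. The part of transcript length in these results was not tested.

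**Figure D5:**
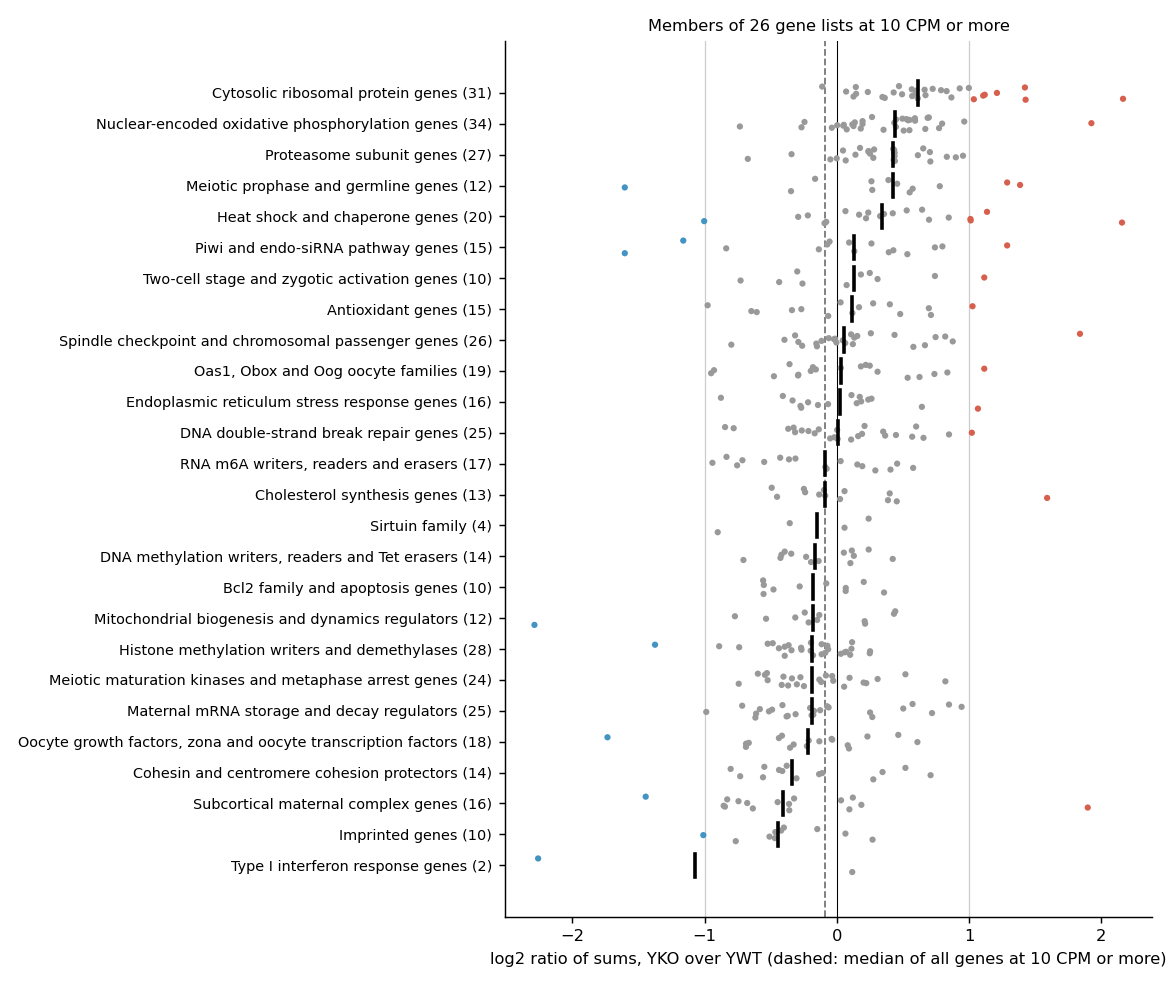
Each row is 1 of 26 gene lists and each point a member at 10 CPM or more, placed at its log2 ratio of the knockout to the wild-type sum, with a bar at the list's median and a dashed line at the median of all genes (−0.09). Ribosomal protein, oxidative phosphorylation and proteasome genes have the highest medians among lists of more than 20 members (0.61, 0.44 and 0.43).

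Several lists of genes that act in the oocyte itself had lower summed levels in the 2-month knockout than in the 2-month wild type. Regulators of maternal mRNA storage and decay summed to 12588 CPM in the knockout and 14965 CPM in the wild type, and 14 of 15 knockout oocytes lay below the lowest wild-type oocyte. The subcortical maternal complex list summed to 48338 CPM in the knockout and 57656 CPM in the wild type, with 12 of 15 knockout oocytes below the lowest wild-type one, and growth and zona genes to 16675 CPM in the knockout and 22333 CPM in the wild type, with 11 of 15 below. The 8 sums of the older ages ran from 12102 to 14677 CPM for the storage list, with the knockout within them and the wild type above. They ran from 41628 to 58044 CPM for the subcortical list and from 16600 to 25344 CPM for growth and zona genes, and held both 2-month sums. These sums weigh the most abundant members, of which Spin1 and Gdf9 are given below. The difference in Spin1 was most of that in the subcortical list, and the difference in Gdf9 most of that in the growth and zona list. The counts of oocytes rest on 1 scaling factor per group and, here and for the lists below, have no share over all genes beside them. With a factor per set, wild-type set 2 had 13389 CPM for the storage list and 51438 CPM for the subcortical list. Both values were under the lowest wild-type oocyte and above both knockout sets. Plain CPM moved the median log2 ratio of all genes by 0.126, and these sums are on the TMM scale only.

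Of the 16 members of the subcortical maternal complex list, 1 was called higher and 1 lower, and 11 were below 0 (median −0.40). Ooep, a subunit of that complex needed by the early embryo, ran from 46.2 to 1096 CPM (median 576) in knockout oocytes and from 80.8 to 310 CPM (median 151) in wild-type oocytes. Its sums of 582 CPM in the knockout and 156 CPM in the wild type gave a log2 ratio of 1.9, and it rose in the 26-sum fit (adjusted p = 0.00713, or 0.148 without knockout set 2). Khdc3, a partner of Ooep in the complex, went the other way with 10.6 CPM in the knockout and 28.9 CPM in the wild type (log2 −1.45), and fell in the 26-sum fit (adjusted p = 0.0331), a call it lost without either knockout set or wild-type set 1 or 2 (up to 0.29). Spin1, a chromatin reader abundant in oocytes, is on the list but is not a subunit of the complex. Spin1 fell in the 26-sum fit to 13086 CPM in the knockout, against 20319 CPM in the wild type (log2 −0.63, adjusted p = 0.0248). It did not pass without knockout set 2 or wild-type set 1. The difference in Spin1 was most of that in the list's sum, so the lower sum does not stand for the complex.

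Genes of the meiotic spindle had a median of 0.05 over 26 members, with Aurkc called higher. Aurkc, the germline aurora kinase, ran from 513 to 740 CPM (median 618) in knockout oocytes and from 111 to 498 CPM (median 135) in wild-type oocytes, without overlap. The wild-type set 3 had 452 CPM and the other wild-type sets 110 to 140 CPM. Aurkc rose in the 26-sum fit (log2 1.56, SE 0.43, adjusted p = 0.0235) and kept the call only without wild-type set 3 (adjusted p up to 0.114). Birc5, the survivin subunit that holds aurora kinases at the centromere, rose to 235 CPM in the knockout against 148 CPM in the wild type (adjusted p = 0.0114), and the kinetochore genes Spc25 and Cenpe had log2 ratios of 0.58 and 0.44 and rose there too (adjusted p = 0.0107 and 0.0404). Birc5 and Spc25 did not pass without knockout set 1 (adjusted p = 0.23 and 0.376), and Cenpe kept its call only without wild-type set 3.

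Among growth and zona genes, 18 in all with a median of −0.22, Taf4b was called lower. Taf4b, a germ-cell subunit of the transcription factor TFIID, had 13.3 CPM in the knockout and 44.1 CPM in the wild type (log2 −1.73), and fell in the 26-sum fit (adjusted p = 0.000208). Gdf9, the growth factor by which the oocyte acts on its granulosa cells, fell to 6842 CPM in the knockout against 11017 CPM in the wild type (log2 −0.69, adjusted p = 0.0161), but not without a knockout set (up to 0.172). Knockout oocytes ran from 457 to 9104 CPM for Gdf9 and wild-type oocytes from 7792 to 13516 CPM. The lowest knockout value was far under the others of the group, whose median was 7315 CPM. Zp3, a zona pellucida protein, differed little with 191 CPM in the knockout and 179 CPM in the wild type (adjusted p = 0.762).

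Meiotic prophase genes had a median of 0.42 over 12 members. They summed to 2679 CPM in the knockout and 2259 CPM in the wild type, with 8 of 15 knockout oocytes above the highest wild-type oocyte. The 8 sums of the older ages ran from 1760 to 3026 CPM and held both. Tex12, of the synaptonemal complex, had 88.1 CPM in the knockout and 33.7 CPM in the wild type (log2 1.39), and rose in the 26-sum fit (adjusted p = 8.42e-05). Mael, a piRNA pathway protein, had 18 CPM in the knockout and 7.38 CPM in the wild type (log2 1.29) and rose (adjusted p = 0.0124). Oocyte 5 of knockout set 1 had 102 CPM of Mael and the other 14 had 7.27 to 20.6 CPM, and without it the log2 ratio was 0.75. By contrast Ddx4, the germ-cell helicase VASA, fell to 14.5 CPM in the knockout against 44.2 CPM in the wild type (log2 −1.6, adjusted p = 0.0394). Tdrd5, another piRNA pathway protein, fell to 31.4 CPM in the knockout against 70.2 CPM in the wild type (adjusted p = 0.0181). Mael and Tdrd5 did not pass without knockout set 1 (adjusted p = 0.331 and 0.303), nor did Ddx4 without either knockout set or wild-type set 1 or 4 (up to 0.223). Among genes of meiotic maturation, with 24 members and none called by size, Cdc25b rose (log2 0.82), while Mos (log2 −0.53) and Akap1 (log2 −0.74) fell in the 26-sum fit (adjusted p = 0.0308, 0.0217 and 0.0118). Cdc25b encodes the phosphatase that releases the meiotic arrest, and Mos the kinase that upholds the arrest at metaphase II. Cdc25b lost its call without any 1 set (adjusted p up to 0.253), and Mos and Akap1 without either knockout set (up to 0.228 and 0.212).

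Chromatin genes gave few calls by size. Of 28 histone methylation genes at 10 CPM or more, Setd2 alone was called by size and the median was −0.19. The list summed to 2969 CPM in the knockout and 3481 CPM in the wild type. The 8 sums of the older ages ran from 2859 to 3105 CPM, with the knockout within them and the wild type above. By their group's scaling factor, 14 of 15 knockout oocytes were below the lowest wild-type oocyte (3153 CPM). Sets were scaled by factors of their own. On that scale wild-type set 4, a single oocyte, had 2908 CPM and lay under both knockout sets (2946 and 3025 CPM). The place of that oocyte thus depended on the scaling. Setd2, which trimethylates histone H3 at K36, ran from 15.7 to 57.1 CPM (median 36.9) in knockout oocytes and from 70.6 to 127 CPM (median 98.9) in wild-type oocytes, without overlap. Its sums of 38 CPM in the knockout and 98.4 CPM in the wild type gave a log2 ratio of −1.37. Setd2 fell in the 26-sum fit (adjusted p = 0.00141) and kept its call without each of the 6 sets (adjusted p 0.00196 to 0.0246), but did not pass in the pooled-spread fit (adjusted p = 0.107). Kdm3b, an H3K9 demethylase, also fell (6.75 CPM in the knockout and 12.5 CPM in the wild type, adjusted p = 0.0141), as did Kmt2a, an H3K4 methyltransferase that was at 0.777 CPM in the knockout and 8.74 CPM in the wild type (adjusted p = 0.0215). Kdm3b did not pass without either knockout set (up to 0.178), nor Kmt2a without set 1 (adjusted p = 0.212). Of 14 DNA methylation genes none was called by size. Trim28, the co-repressor that protects imprints, had 45.6 CPM in the knockout and 74.4 CPM in the wild type, and fell in the 26-sum fit (log2 −0.71, adjusted p = 0.0229, up to 0.268 without either knockout set). Of 10 imprinted genes with a median of −0.44, Ube3a was called lower at 59.9 CPM in the knockout and 121 CPM in the wild type (adjusted p = 0.00275 in the 26-sum fit, or 0.0627 without knockout set 1), and its ratio was −0.98 without knockout oocyte 5 of set 1.

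Genes of mitochondria outside the respiratory chain showed a single large difference. Mtfr2, a regulator of mitochondrial fission, ran from 43.5 to 1039 CPM (median 657) in knockout oocytes and from 1938 to 2919 CPM (median 2253) in wild-type oocytes, without overlap. Its sums of 470 CPM in the knockout and 2294 CPM in the wild type gave a log2 ratio of −2.29. The knockout sets differed, with 50.1 CPM in set 1 and 783 CPM in set 2, and Mtfr2 passed neither fit (adjusted p = 0.418 and 0.163). Sirt1, the deacetylase linked to resveratrol, had 9.15 CPM in the knockout and 17.1 CPM in the wild type (log2 −0.90) and passed neither fit (adjusted p = 0.267 and 0.126). Prdx6, an antioxidant enzyme, had 37.7 CPM in the knockout and 18.5 CPM in the wild type and rose in the 26-sum fit (adjusted p = 0.000718), and Srebf2, the regulator of cholesterol synthesis, had 11 CPM in the knockout and 3.66 CPM in the wild type and rose there as well (adjusted p = 0.0384), but not without knockout set 2 or wild-type set 1, 3 or 4 (up to 0.879). Calr, a chaperone of the endoplasmic reticulum, had 75.8 CPM in the knockout and 36.1 CPM in the wild type without passing (adjusted p = 0.213 and 0.0638). Rad52, of double-strand break repair, had 12.5 CPM in the knockout and 6.16 CPM in the wild type and rose in the 26-sum fit (adjusted p = 0.0263), but not without either knockout set or wild-type set 1 or 4 (up to 0.147), and its log2 ratio was 0.93 without knockout oocyte 5 of set 1. Double-strand break repair genes summed to 2744 CPM in the knockout and 3152 CPM in the wild type, with 11 of 15 knockout oocytes below the lowest wild-type oocyte, and imprinted genes to 704 CPM in the knockout and 944 CPM in the wild type, with 12 of 15 below. The 8 sums of the older ages were 2674 to 2933 CPM for break repair, with the knockout within them and the wild type above. For imprinted genes they were 818 to 961 CPM, with the knockout below them and the wild type within. Cohesin, m6A, Bcl2 family, sirtuin and maternal mRNA storage lists had no member called by size and medians from −0.34 to −0.09.

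The same contrast called fewer genes in each of the 4 pairs of groups at older ages. By size, 221 of 7194 genes were called at 6 months (3.07%), with 108 higher (1.5%) and 113 lower (1.57%) in the knockout. With resveratrol at 6 months 547 of 7286 were called (7.51%), 266 higher (3.65%) and 281 lower (3.86%). At 10 months 96 of 7183 were called (1.34%), 46 higher (0.64%) and 50 lower (0.696%). With resveratrol at 10 months 204 of 7254 were called (2.81%), 73 higher (1.01%) and 131 lower (1.81%). Of the 251 genes higher at 2 months, 16 (6.37%), 59 (23.5%), 7 (2.79%) and 9 (3.59%) were also at least 2-fold higher in those 4 pairs in that order, beside 0.921%, 3.08%, 0.691% and 0.975% of all genes. Of the 323 lower genes, 29 (8.98%), 86 (26.6%), 26 (8.05%) and 26 (8.05%) were at least 2-fold lower, beside 1.52%, 3.49%, 0.677% and 1.6% of all genes. The 6-month contrast with resveratrol held the largest shares, both of these genes and of all genes. Its wild-type sum resembled the 2-month wild type in many called genes, and the part of this in the shares was not tested.

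Some genes called at 2 months had the genotypes in the same order at every age, in shares near those of all genes. Those named here were chosen after their values were seen. For 29 of the 323 lower genes (8.98%) all 4 older knockout sums lay under all 4 older wild-type sums, beside 6.33% of all genes, and for 10 of the 251 higher genes (3.98%) they lay above, beside 2.37%. The opposite order was found for 13 of the lower genes (4.02%, beside 2.37% of all genes) and 9 of the higher genes (3.59%, beside 6.33%). These shares lay near those of all genes and were not tested. Me1, the malic enzyme that makes NADPH, had 479 CPM in the 2-month knockout and 1553 CPM in the 2-month wild type. Its older sums were 355 to 399.6 CPM in the knockout and 513 to 1363 CPM in the wild type. Phf13, a reader of H3K4 methylation, had 225 CPM in the knockout and 557 CPM in the wild type at 2 months, and 199 to 321 CPM in the older knockouts against 340 to 470 CPM in the older wild types. Bst2 had 8.72 to 10.8 CPM in the older knockouts and 18.5 to 27.1 CPM in the older wild types. Mb21d1, the DNA sensor cGAS, had 40.6 CPM in the 2-month knockout and 111 CPM in the wild type, and Mavs, the adaptor of RNA sensing, had 30.5 CPM in the knockout and 62.4 CPM in the wild type. The older sums of Mb21d1 were 42.8 to 58.7 CPM in the knockout and 61.3 to 88.7 CPM in the wild type. The list of type I interferon response genes had 2 members at 10 CPM or more, of which Bst2 was below 0 and the other above. On the higher side were Lyar, a nucleolar protein, with 126 CPM in the knockout and 62.4 CPM in the wild type at 2 months, and Mkks, a chaperonin-like protein, with 14.7 CPM in the knockout and 3.16 CPM in the wild type. The older sums of Mkks were 4.91 to 13.5 CPM in the knockout and 3.39 to 4.64 CPM in the wild type.

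The knockout effect at 2 months differed from the mean effect at 6 and 10 months for 19 of 22239 genes in the pooled-spread fit (0.0854%), 14 more positive at 2 months (0.063%) and 5 more negative (0.0225%), with 2573 at an unadjusted p under 0.05. In the 26-sum fit it differed for 1235 (6.28%), 652 positive (3.32%) and 583 negative (2.96%). Leaving out any 1 of the 8 older sums except the 6-month knockout with resveratrol moved 1 or both pooled-spread counts by more than 1.5 times, to 7 to 80 and 1 to 57, with the highest counts reached without the 6-month wild type with resveratrol. Of the 15 with a position, 9 lay on chromosome 2, between the starts of Ccdc73 at 104867805 and the end of the last at 126091185. For Dph6 the effect was higher at 2 months by 5.87 on the log2 scale (SE 0.54, adjusted p = 0.00903), and for Entpd1 by 3.6 (adjusted p = 0.00675). For Mfap1b the sign itself differed. It was 50.4 CPM in the 2-month knockout and 7.69 CPM in the 2-month wild type, but 29.0 to 44.1 CPM in the older knockouts and 61.2 to 84.6 CPM in the older wild types (difference 3.72, adjusted p = 0.00675). Ldb2, a partner of LIM-domain transcription factors, did the reverse, with 9.06 CPM in the 2-month knockout and 27.4 CPM in the 2-month wild type, against 13.5 to 19 CPM in older knockouts and 6.66 to 9.68 CPM in older wild types (difference −2.62, adjusted p = 0.0104). Ldb2 lost the call without the 6-month knockout without resveratrol (adjusted p = 0.0518), Ccdc73 (difference 2.5, adjusted p = 0.0359) kept it without 3 of the 8 sums, and Dph6, Entpd1 and Mfap1b kept it without each of the 8. Entpd1 did not pass this test in the 26-sum fit (adjusted p = 0.189).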

How the data were processed

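Single-oocyte libraries were read from a table of whole-number counts per gene that the authors deposited, not normalized, with 53619 gene symbols. The submitters' processing notes name mm10, HISAT2 2.1.0, featureCounts and DESeq2 without their roles or whether counting used strand. Overlapping genes, antisense partners and near-identical copies therefore cannot be told apart. Of the symbols, 28390 matched GENCODE vM21, which gave positions and exonic lengths. The granulosa pools and the C57BL6 oocytes were not used here.

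Counts of the 10 groups of C57BL6/129 oocytes were summed and scaled by TMM, as were the oocytes of each group with their group's factor. Each of the 26 sums was scaled with a factor of its own. Ratios had 0.5 counts added. Fits used edgeR 4.0.16 (quasi-likelihood, minimum count 10) with limma 3.58.1 in R 4.3.3, with terms for age, resveratrol, genotype at 2 months and genotype at 6 and 10 months over the 10 sums, and 1 mean per group over the 26. The difference from older ages is a contrast of the same fit. Biological coefficients of variation were 0.282 for the 10 sums and 0.281 for the 26. DESeq2 1.42.0 was an alternative. Tables and plots used Python 3.11.15, pandas 2.3.3, numpy 2.4.6, scipy 1.17.1 and matplotlib 3.10.9. The pooled-spread fit was tested on simulated counts that held no genotype effect at 6 and 10 months. Intervals cover counting error only, since amplified reads carry no molecular identifiers.

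Alternatives were other scalings, filters and fold limits, sums left out, an additive model and DESeq2. The 26 sums, their leave-one-out fits and the exclusion of knockout oocyte 5 of set 1 were added after the data were seen. Members and gene lists were chosen with earlier results of these data known. By the rule, the Tet genes are named always, then the 10 genes with the highest and the 10 with the lowest ratio among those at 10 CPM. To these come the 6 genes of each direction with the lowest p in the pooled-spread fit, the 4 with the lowest p for the difference from older ages, and up to 2 members of each list past 2-fold. Gene models, numbered pseudogenes and clone names were not named. Other genes were named after their values were seen. Of the genes the naming rule selects, 1 is not reported here.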

Additional observations from a re-analysis of the deposited data

Results flagged for a closer look

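The knockout effect at 2 months differed from the mean effect at 6 and 10 months by a test of the difference itself in 5 named genes (edgeR's quasi-likelihood test on the 10 sums, Benjamini-Hochberg adjusted over 22239 genes). On the log2 scale, Dph6 differed by 5.87 (adjusted p = 0.00903), Entpd1 by 3.6 (adjusted p = 0.00675), Mfap1b by 3.72 (adjusted p = 0.00675), Ccdc73 by 2.5 (adjusted p = 0.0359) and Ldb2 by −2.62 (adjusted p = 0.0104). For Dph6, Entpd1 and Ccdc73 the 2-month wild type was the low sum. For Mfap1b and Ldb2 the genotypes were on opposite sides at the 2-month and the older ages. Ccdc73 lost its call without any 1 of 5 sums and Ldb2 without the 6-month knockout without resveratrol, and Entpd1 did not pass in the 26-sum fit.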

How the results depend on the processing

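Calls by size (251 higher, 323 lower) were 815 and 833 with a minimum of 1 CPM, 64 and 121 with 50 CPM, 850 and 1212 at 1.5-fold and 360 and 222 with plain CPM, against 249 and 326 with DESeq2's size factors. Without 1 set of oocytes they were 258 to 323 higher and 291 to 540 lower. The pooled-spread fit (21 higher, 8 lower) called 51 and 41 without the filter, 164 and 140 on the 6 sums without resveratrol, 8 and 21 in an additive model, 303 and 341 with DESeq2 and 1164 and 818 on 26 sums. It called 5 to 116 higher and 0 to 77 lower without 1 sum, and the 26-sum fit 393 to 871 and 218 to 920 without 1 set. The difference from older ages (14 and 5) gave 42 and 35 without the filter, 111 and 138 on 6 sums, 177 and 267 with DESeq2, 652 and 583 on 26 sums, and 7 to 80 and 1 to 57 without 1 sum.

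Tet2 was lower in the knockout under every alternative run. The log2 ratio of median oocytes was −2.07, the ratio without 1 set was −1.88 to −1.28, the additive model gave −1.36 (adjusted p = 0.036), and the 26-sum fit without 1 set gave −1.95 to −1.34, with no call without knockout set 2. The ratio of Galnt7 was 6.17 without knockout set 1 and turned to −1.03 without set 2, that of Mef2b was 4.13 and −0.36, and Galnt7 in the 26-sum fit was 5.91 and −1.38, and Mfap1b turned to −0.40 in the additive model, where the 2-month effect is averaged with that of older ages. Of genes that passed neither the pooled-spread fit nor this model, it also turned Pak3 to 1.7, Cdc5l to 1.57, Ldb2 to 0.58, Mgl2 to 0.44, Csmd1 to 0.17, Sirt1 to 0.08, Prdx6 to −0.03 and Cdc25b to −0.18. Except where an alternative tests fewer sums or other genes by its construction, the cause was not tested. No paired analysis was possible because groups were summed and the numbers in the library names match no sample title. Depth limits Tet1, Tet2 and other genes under 10 CPM, and simulated 2-fold changes were found in 10 of 81 genes.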
